A study of Mus musculus with 8 samples.

Results

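Of the genes measured on the arrays, 9 encode the type 1 and growth factor cytokines that activated CD8+ T cells secrete or display: Ifng, Tnf, Lta, Il2, Il3, Csf2, Lif, Tnfsf11 and Fasl. They were taken by symbol, and every probe set annotated to 1 of them alone was kept, which gave 12 of the 45101 probe sets on the array. One further probe set, annotated to Il2 and another gene together, was left out. The arrays held RNA of spleen CD8+ T cells of mice that were wild type (strain C57BL/6) or Elf4-/- KO, a mouse that lacks the ETS family transcription factor ELF4 and whose background strain the labels do not give. Cells were used untreated, called naive here, or after 3.5 days of culture on plates coated with anti-CD3 with anti-CD28 in RPMI medium with 10% FBS and 5% T-stim, called activated here. There were 4 groups of 2 arrays: wild-type naive, knockout naive, wild-type activated and knockout activated. Nothing in the labels says that the arrays of a group came from different animals or cultures. All p-values therefore measure the spread among these samples alone, and that spread may be technical.

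A CD8+ T cell makes little cytokine at rest. Engagement of its receptor for antigen together with CD28 activates NFAT, AP-1 and NF-κB factors, which switch on cytokine genes, while proteins that bind AU-rich elements shorten the life of their mRNAs. Interferon gamma (Ifng), tumour necrosis factor (Tnf) and lymphotoxin alpha (Lta) act on infected cells and on macrophages, and Fas ligand (Fasl) kills cells that carry Fas. Interleukin 2 (Il2) drives the growth of T cells. Interleukin 3 (Il3) and GM-CSF (Csf2) support myeloid cells, leukaemia inhibitory factor (Lif) signals through gp130, and RANK ligand (Tnfsf11) acts on osteoclast precursors and dendritic cells.

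In the GRCm38.p6 assembly the members lie at chr10:118441046-118445894 (Ifng), chr17:35199367-35202007 (Tnf), chr17:35203165-35205578 (Lta), chr3:37120713-37125954 (Il2), chr11:54265085-54267279 (Il3), chr11:54247270-54249899 (Csf2), chr11:4257568-4272514 (Lif), chr14:78277446-78308043 (Tnfsf11) and chr1:161780691-161788495 (Fasl). Tnf and Lta are neighbours separated by 1157 bases, and Csf2 and Il3 by 15185 bases. RefSeq promoter windows of this build, from 250 bases before to 50 bases after the start site, were found for 9 of 9 members. Windows of 5 members follow, because 4 of these genes gave the clearest genotype difference in activated cells (Il2, Il3, Lif and Tnfsf11) and Ifng had the largest genotype difference in naive cells. Capitals mark GGAA, the core bound by ETS factors such as ELF4 and also part of NFAT sites, or its reverse complement TTCC. The windows are chr10:118440796-118441095 on the plus strand (Ifng), chr3:37125905-37126204 on the minus strand (Il2), chr11:54267230-54267529 on the minus strand (Il3), chr11:4257318-4257617 on the plus strand (Lif) and chr14:78307994-78308293 on the minus strand (Tnfsf11), each written 5′ to 3′ along its gene.
Ifng: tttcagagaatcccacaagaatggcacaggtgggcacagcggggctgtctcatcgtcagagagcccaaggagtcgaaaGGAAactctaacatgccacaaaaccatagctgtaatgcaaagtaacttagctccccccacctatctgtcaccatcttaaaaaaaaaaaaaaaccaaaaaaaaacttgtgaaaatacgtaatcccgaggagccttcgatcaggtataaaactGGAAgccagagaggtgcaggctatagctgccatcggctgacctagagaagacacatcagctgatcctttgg
Il2: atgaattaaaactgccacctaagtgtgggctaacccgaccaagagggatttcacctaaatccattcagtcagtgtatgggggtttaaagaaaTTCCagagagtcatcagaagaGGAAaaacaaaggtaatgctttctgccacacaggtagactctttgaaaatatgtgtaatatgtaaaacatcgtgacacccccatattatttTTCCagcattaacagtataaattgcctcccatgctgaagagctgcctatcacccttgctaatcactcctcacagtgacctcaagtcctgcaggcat
Il3: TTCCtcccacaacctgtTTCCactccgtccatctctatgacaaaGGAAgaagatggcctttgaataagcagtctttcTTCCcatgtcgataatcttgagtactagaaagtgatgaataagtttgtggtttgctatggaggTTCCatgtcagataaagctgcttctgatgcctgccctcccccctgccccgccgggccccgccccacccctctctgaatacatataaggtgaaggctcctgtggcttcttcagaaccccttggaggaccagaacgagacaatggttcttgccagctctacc
Lif: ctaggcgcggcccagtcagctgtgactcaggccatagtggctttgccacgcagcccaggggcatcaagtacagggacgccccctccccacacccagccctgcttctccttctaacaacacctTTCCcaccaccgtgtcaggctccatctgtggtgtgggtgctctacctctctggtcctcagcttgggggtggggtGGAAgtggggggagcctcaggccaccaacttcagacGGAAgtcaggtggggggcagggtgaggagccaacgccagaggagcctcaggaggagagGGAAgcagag
Tnfsf11: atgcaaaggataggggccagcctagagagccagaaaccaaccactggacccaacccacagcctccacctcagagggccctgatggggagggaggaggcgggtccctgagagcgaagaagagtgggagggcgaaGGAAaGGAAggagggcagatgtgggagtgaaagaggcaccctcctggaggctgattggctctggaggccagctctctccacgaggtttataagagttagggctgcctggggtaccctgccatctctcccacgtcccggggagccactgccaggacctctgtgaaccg

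The GGAA core was searched on both strands and occurred in 9 of 9 member windows and in 96% of all 32851 promoter windows of this length. It matched 2 times in the Ifng and Tnfsf11 windows, 3 times in Il2, 4 in Lif, 5 in Il3 and Fasl, 6 in Csf2, and 7 in Tnf and Lta. The median over all windows was 3, and 8.02% of windows held at least 7. The longer ETS motif CGGAAG was present in 2 of 9 windows, Lif and Fasl, against 16.9% of all windows. The NFAT core GGAAA, whose every match overlaps a GGAA match, was present in 9 of 9 against 61.3%, and the TATA motif TATAAA in 5 of 9 (Ifng, Tnf, Lta, Il2 and Tnfsf11) against 13.6%. Motifs of the other factors named above were less common. The AP-1 motif was present in 1 of 9 windows (Lif) against 7.81% of all windows. The NF-κB motif was present in 4 of 9 (Tnf, Csf2, Lif and Tnfsf11) against 20.7%. A cAMP element, also searched for, was present in 0 of 9 against 1.79%. A match is a description of the letters in a window and no evidence of binding.

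The arrays differed by state in ways other than activation, so activation cannot be told apart from them. Xist, the RNA of the inactive X chromosome, read 60.3 to 172 intensity units on naive and 7703 to 10011 on activated arrays. Intensities of the Lys spike-in lay between 989 and 1654 in the naive groups and between 62726 and 78734 in the activated ones, and the array file names in the labels come from separate series for the states. The labels give both wild-type naive samples the same array file name. Their values differ, so they were kept as separate arrays. The 3' to 5' signal ratio of Actb also separated the states, and whether it reflects RNA integrity or the handling of the arrays was not tested. That of Gapdh lay between 3.38 and 4.42 in naive and between 4.83 and 7.56 in activated cells. The Actb ratio lay between 1.96 and 2.5 in naive cells and between 5.9 and 11.1 in activated cells. Among the latter the wild-type arrays gave 5.98 and 5.9 and the knockout arrays 7.44 and 11.1. Elf4 itself was dim: its brighter probe set read 116 and 199 in wild-type naive, 165 and 192 in knockout naive, 83.6 and 134 in wild-type activated and 76.2 and 80.6 in knockout activated cells. Whether its probes lie in the deleted part was not analysed here, and the gene is therefore no check of the genotype labels. The CD8 T cell markers were present on all arrays, with 6 of 6 measured markers reaching the array median on 8 of 8 arrays, and Cd4, the marker of helper T cells, was below the array's median on 8 of 8 arrays.

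Testing a probe set required an intensity no lower than the array median on at least 2 of the 8 arrays. Of the 12 member probe sets 10 were tested, among them the brightest of each of the 9 genes. Il2, Il3, Csf2 and Lif were below the median on all 4 naive arrays and passed through the activated arrays only, so their rise on activation follows in part from the filter. Values are intensities per probe set, changes are on the log2(intensity + 16) scale, and ± gives the SD of 2 arrays. A gene counted as called at an adjusted p under 0.05 in limma, with Benjamini-Hochberg adjustment over 27348 probe sets.

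The first comparison asked how the cytokine genes change when CD8+ T cells are activated. In wild-type cells 8 of 9 genes rose and Tnf was not called, and in knockout cells 9 of 9 rose. Over all probe sets 17.4% were called higher in wild type and 18.2% in the knockout. Among members the median log2 change was 4.37 in wild type and 4.77 in the knockout, beside −0.15 and −0.16 over all probe sets tested. Since 4 members passed the filter only through activated arrays, these counts are a description. When the Actb ratio entered the fit, 2 of 9 members were called in wild type and 0 of 9 in the knockout by limma, with 484 and 0 calls over all probe sets, the ratio itself being separate between the states.

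**Figure D1:**
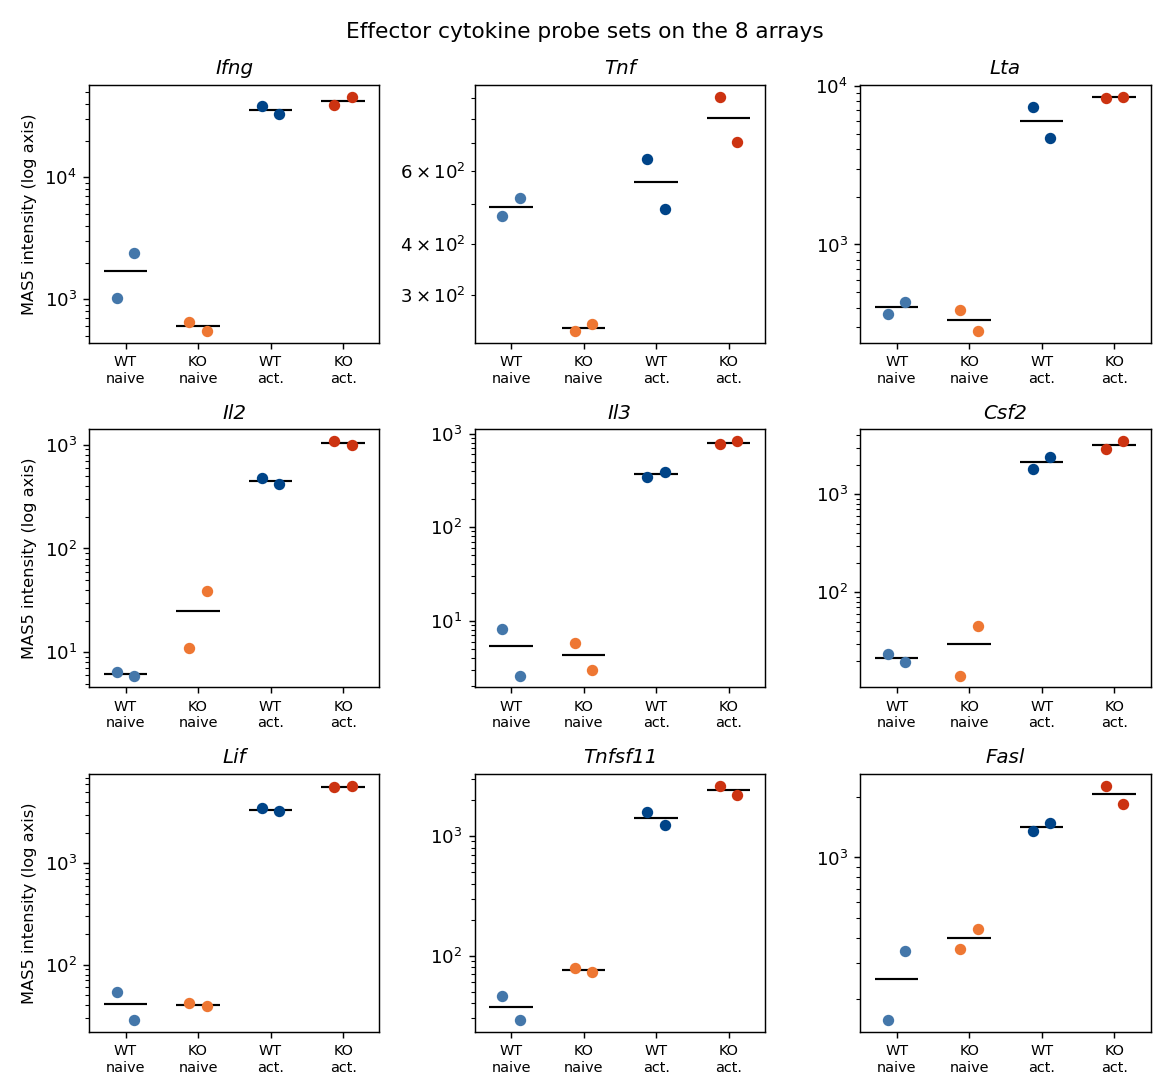
MAS5 intensity (log axis, arbitrary units) of the brightest probe set of each of the 9 cytokine genes on the 8 arrays. Each point is 1 array, black lines are means of 2 arrays, and KO is the Elf4 knockout. In activated cells both knockout points lie above both wild-type points in each panel, for Ifng by a narrow gap (38935 against 38417).

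Ifng, the signature type 1 cytokine, read 1017 and 2382 in wild-type naive, 657 and 550 in knockout naive, 38417 and 32820 in wild-type activated, and 38935 and 45856 in knockout activated cells. Activated arrays were far above naive ones in either genotype, with mean ratios of 21.0 in wild type and 70.3 in the knockout. The log2 change was 4.50 in wild type (SE 0.30, adjusted p = 1.01e-06) and 6.10 in the knockout (SE 0.30, adjusted p = 1.35e-07). The wild-type naive arrays stood apart from each other, and both were above the knockout naive arrays.

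Lta, the soluble relative of Tnf, read 365 and 437 in wild-type naive, 385 and 285 in knockout naive, 7354 and 4669 in wild-type activated, and 8340 and 8544 in knockout activated cells. It rose by 3.82 in wild type (adjusted p = 4.89e-07) and by 4.61 in the knockout (adjusted p = 1.4e-07). Its neighbour Tnf read 467 and 516, 246 and 255, 643 and 486, and 909 and 707 in that group order. Tnf therefore had a wild-type activated array below a wild-type naive array, and its wild-type change was 0.18 (SE 0.23, adjusted p = 0.578). In the knockout its naive and activated arrays were clearly apart, and it rose by 1.62 (SE 0.23, adjusted p = 0.000216).

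The T cell growth factor gene Il2 was near the bottom of the scale in naive cells, at 6.51 and 5.97 in wild type and 11.1 and 38.7 in the knockout. In activated cells it read 475 and 413 in wild type and 1080 and 984 in the knockout. It rose by 4.37 in wild type (adjusted p = 9.3e-06) and by 4.77 in the knockout (adjusted p = 4.53e-06). Il3, which supports early myeloid cells and mast cells, read 8.20 and 2.60 in wild-type naive, 5.74 and 2.96 in knockout naive, 342 and 392 in wild-type activated, and 775 and 830 in knockout activated cells. Its rise was 4.17 (adjusted p = 1.18e-05) and 5.33 (adjusted p = 1.86e-06). The offset of 16 exceeds the naive values of Il3, and those of Il2 except 38.7 in the knockout, so the fold changes are understated. For Il2 the mean ratio of activated to naive intensity was 71.1 in wild type and 41.5 in the knockout. This is the opposite order to its log2 changes.

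Lif and Csf2 rose from low naive values to well above the array median. Lif, an interleukin 6 family cytokine, read 53.7 and 28.4, 41.6 and 39.0, 3492 and 3251, and 5614 and 5840 in wild-type naive, knockout naive, wild-type activated and knockout activated cells. It rose by 5.93 in wild type (SE 0.25, adjusted p = 5.02e-08) and by 6.67 in the knockout (SE 0.25, adjusted p = 2.64e-08). Csf2, the gene of GM-CSF, read 23.5 and 19.4, 14.1 and 45.3, 1827 and 2430, and 2869 and 3486 in that order. Csf2 rose by 5.83 (adjusted p = 4.14e-07) and 6.21 (adjusted p = 2.6e-07). In neither gene did naive and activated arrays come near each other.

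The membrane-bound ligands of the TNF family also rose. Tnfsf11 read 46.4 and 29.1 in wild-type naive, 78.7 and 73.1 in knockout naive, 1577 and 1236 in wild-type activated, and 2630 and 2182 in knockout activated cells. It rose by 4.74 and 4.71 (adjusted p = 3.02e-07 and 2.84e-07). Fasl read 157 and 344, 353 and 445, 1352 and 1480, and 2265 and 1844 in that order, rising by 2.52 and 2.32 (adjusted p = 7.28e-05 and 0.000117). Fasl was the member with the smallest called rise in wild type.

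The second probe sets of 3 genes did not show these rises. That of Fasl read 71.3 and 73.9, 77.3 and 61.0, 70.5 and 135, and 162 and 128, with changes of 0.37 (adjusted p = 0.537) and 0.92 (adjusted p = 0.109). Those of Lif and Tnfsf11 stayed below the array's median on 8 of 8 arrays, between 5.36 and 52.5 for Lif and between 3.07 and 40.9 for Tnfsf11, and were not tested. A gene's rise thus rests on its brighter probe set in each of these 3 genes.

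**Figure D2:**
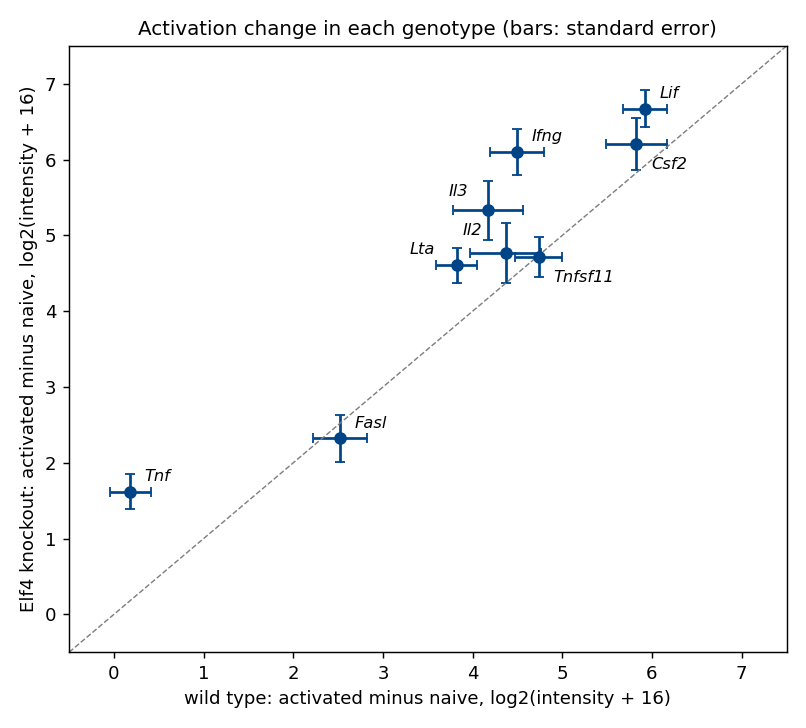
Activated minus naive difference of each cytokine gene, on the log2(intensity + 16) scale, in wild type (horizontal axis) and Elf4 knockout (vertical axis); bars are standard errors of the limma fit and the dashed line marks equal change. Tnf (0.18 and 1.62) and Ifng (4.50 and 6.10) lie farthest above the line, and Tnfsf11 (4.74 and 4.71) and Fasl (2.52 and 2.32) lie on or just below it.

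The second comparison asked which cytokine genes differ between genotypes in activated cells. The brightest probe set of 9 of 9 genes was higher on both knockout arrays than on both wild-type arrays, where 22.5% of all probe sets were. With quantile normalization this held for 8 of 9, since the Ifng arrays then overlapped, and with arrays centred on their medians for 9 of 9. None passed the adjusted threshold in limma over all 8 arrays (0 of 9, with 0.216% of all probe sets called), while 5 of 9 had an unadjusted p under 0.05, as did 10.5% of all probe sets. The median log2 difference of the members was 0.58, against −0.02 over all probe sets, whose 90th percentile was 0.57.

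Il2 and Il3 had the largest differences. Il2 read 444 ± 43.6 in wild-type and 1032 ± 68.2 in knockout activated cells (SD, n = 2), a mean ratio of 2.32. Its log2 difference was 1.19 (SE 0.40, adjusted p = 0.298). Il3 read 367 ± 35.4 and 802 ± 39.0, a ratio of 2.19 and a log2 difference of 1.1 (SE 0.39, adjusted p = 0.337). For both genes the gap between genotypes was several times the spread between replicates, but the fit over 8 arrays did not call it.

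Lif was 1.70-fold higher in the knockout (3371 ± 171 against 5727 ± 160), a log2 difference of 0.76 (SE 0.25, adjusted p = 0.279). Tnfsf11 was 1.71-fold higher (1407 ± 241 against 2406 ± 317), a difference of 0.77 (SE 0.26, adjusted p = 0.311). Csf2, the neighbour of Il3, was 1.49-fold higher at 0.58 (SE 0.34, adjusted p = 0.604), a smaller difference than that of Il3. The difference between these neighbours was not tested.

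The genotype differences of the remaining members, which act in the attack on target cells, were of similar size to that of Csf2 or smaller, and none was tested against another. Fasl gave 0.53 (SE 0.30, adjusted p = 0.601), Lta 0.53 (SE 0.23, adjusted p = 0.45) and Tnf 0.51 (SE 0.23, adjusted p = 0.478). Ifng gave 0.25 (SE 0.30, adjusted p = 0.841), with means of 35619 ± 3958 and 42395 ± 4894, and its difference turned to −0.42 (adjusted p = 0.93) when the Actb ratio entered the fit as a covariate.

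The outcome of the test depended on which arrays set the error. When the 4 activated arrays were fitted alone, 4 of 9 members were called higher in the knockout, against 2.68% of all probe sets called. These were Lif (adjusted p = 0.00608), Il2 (adjusted p = 0.00714), Il3 (adjusted p = 0.0126) and Tnfsf11 (adjusted p = 0.0304), while Fasl, Csf2, Lta, Tnf and Ifng gave adjusted p = 0.0731, 0.0829, 0.16, 0.21 and 0.315. In knockout naive cells, which that fit leaves out, the arrays read 41.6 and 39.0 for Lif and 11.1 and 38.7 for Il2. They read 5.74 and 2.96 for Il3 and 78.7 and 73.1 for Tnfsf11. Beside these differences the Actb ratio was higher in the knockout activated arrays, as given above, and its part in the result was not tested beyond the covariate.

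**Figure D3:**
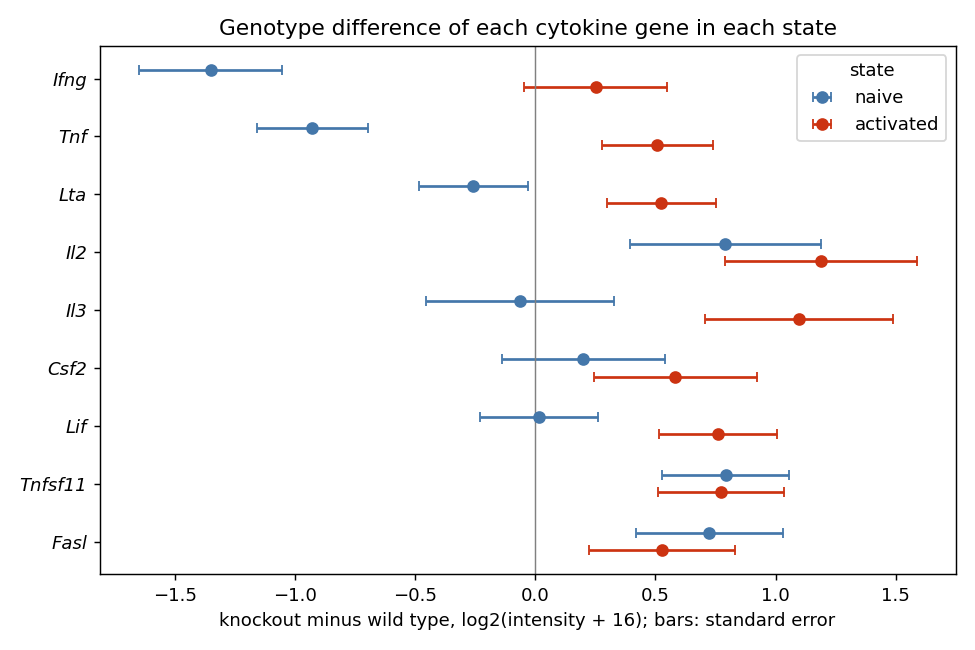
Knockout minus wild type difference of each cytokine gene on the log2(intensity + 16) scale in naive and activated cells, with standard errors of the limma fit as bars. The activated values lie between 0.25 and 1.19, and the naive values between −1.35 and 0.79.

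The third comparison asked whether naive cells of the genotypes differ in these genes. None of the 9 was called (0.563% of all probe sets were), and 4 of 9 had an unadjusted p under 0.05, against 12.1% of all probe sets. Ifng and Tnf read lower on both knockout arrays, 2 of 9 members, where 19.8% of all probe sets did. The median of the members was 0.02 on the log2 scale, beside −0.0037 over all probe sets.

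Ifng read 1699 ± 965 in wild-type and 603 ± 75.6 in knockout naive cells, 2.82-fold lower, with a log2 difference of −1.35 (SE 0.30, adjusted p = 0.0981). The wild-type arrays set the result: without wild-type naive replicate 1 the difference was −1.96 and was called (adjusted p = 0.0021), and without replicate 2 it was −0.74 and was not. Tnf read 492 ± 34.9 and 250 ± 6.86, 1.96-fold lower, with a log2 difference of −0.93 (SE 0.23, adjusted p = 0.141). Its arrays of the same genotype lay close together.

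In the other direction, Tnfsf11 read 37.7 ± 12.2 and 75.9 ± 3.94, with a difference of 0.79 (SE 0.26, adjusted p = 0.259). Fasl read 250 ± 132 and 399 ± 64.7, a difference of 0.72 (SE 0.30, adjusted p = 0.373), which was called without wild-type naive replicate 2 (1.25, adjusted p = 0.0441). Il2 gave 0.79 (SE 0.40, adjusted p = 0.474) from intensities between 5.97 and 38.7. Lta, Il3, Csf2 and Lif gave −0.26, −0.06, 0.20 and 0.02, with adjusted p of 0.726, 0.973, 0.88 and 0.99. The Il2, Il3, Csf2 and Lif values are all below the array's median, so they hold little information on naive cells. Tnfsf11 was below the median on both wild-type naive arrays (46.4 and 29.1 against 73.6 and 86.2). On both knockout naive arrays it was just above it (78.7 and 73.1 against 75.5 and 70.7), so the same limit holds in part.

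**Figure D4:**
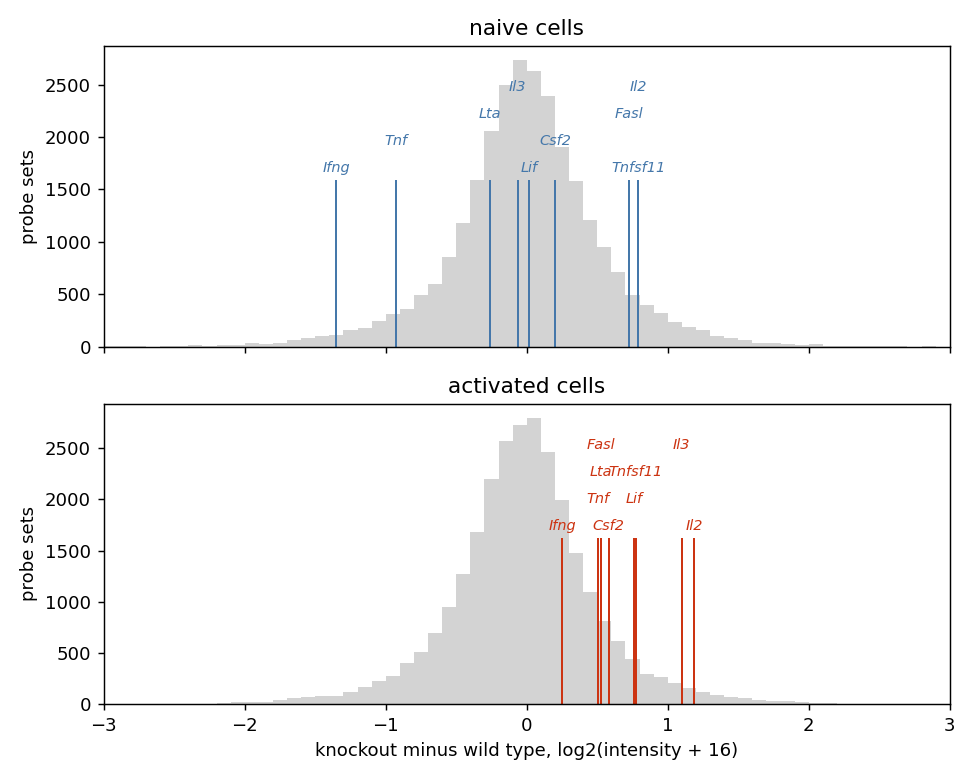
Number of tested probe sets by knockout minus wild type difference on the log2(intensity + 16) scale (grey, bins of 0.1), in naive cells (top) and activated cells (bottom), with the 9 cytokine genes as vertical lines. The axis runs from −3 to 3 and leaves out 21 probe sets in naive and 8 in activated cells. In activated cells all 9 lines are right of 0, and in naive cells 5 of 9 are.

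Markers of other cells that can make these cytokines were also followed in naive cells, which are bulk samples, where fewer cells of a type and less RNA per cell cannot be told apart. The summed intensity of 7 measured NK cell markers, from cells that make Ifng at rest, was 2110 to 2488 on wild-type and 4120 to 5078 on knockout naive arrays. Most of that sum was Eomes, which CD8+ T cells also express (2027 and 1225 in wild type, 2814 and 3132 in the knockout), and 3 of the 7 markers (Klra8, Tyrobp and Eomes) read higher on both knockout arrays. Klra8 was the 1 NK marker called (higher in the knockout), and the defining marker Ncr1 was below the median on 8 of 8 arrays. The 10 macrophage and monocyte markers, from a source of Tnf, summed to 18085 to 19068 on wild-type and 15930 to 20553 on knockout naive arrays. Most of that sum was Ctss, which read lower on both knockout arrays (15828 and 16432 against 12087 and 14198), while 5 of the 10 (Lyz2, Csf1r, Adgre1, Fcgr3 and C1qb) read higher on both and none was called. Csf1r, for example, read 1008 and 1187 in wild type and 1818 and 2276 in the knockout. The share of all probe sets that read higher on both knockout naive arrays was not counted, so these marker counts are a description. The 9 granulocyte markers summed to 419 to 737 on wild-type and 4669 to 19510 on knockout naive arrays, with 4 of them called, and the 7 B cell markers to 27699 to 30028 and 22220 to 28859. Their part in the result was not tested.

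In activated cells the NK markers summed to 2147 to 2577 in wild type and 1714 to 1853 in the knockout, and the 6 CD8 T cell markers to 28613 to 29854 and 21953 to 23823. The granulocyte markers summed to 263 to 402 and 231 to 234, the macrophage markers to 10718 to 12553 and 10503 to 11003, and the B cell markers to 4426 to 4800 and 5673 to 6712. The 5 mast cell and basophil markers summed to 706 to 930 and 1006 to 1271, and the 6 CD4 T cell markers, carried by Il2ra and Ctla4, to 23192 to 23810 and 24432 to 26211. Of the CD8 T cell markers 6 of 6 read lower on both knockout arrays. Of the 7 NK markers 3 read lower (Klrk1, Klra8 and Eomes) and 2 higher (Fcer1g and Itga2). The B cell sum was mostly Ighm, which read higher, as did Ms4a1, while Cd79b read lower and the other 4 overlapped. Of the 5 mast cell and basophil markers 2 read higher (Mcpt8 and Fcer1a) and 3 overlapped. Over all probe sets 22.5% read higher on both knockout activated arrays. The share that read lower on both was not counted, so these marker counts are a description. No marker was called between genotypes in activated cells. Their part in the result was not tested.

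The fourth comparison asked whether the genotype difference itself changes with activation. None of the 9 members was called, with 0.0585% of all probe sets called. The difference was positive for 7 of 9. Tnf changed from −0.93 in naive to 0.51 in activated cells, a shift of 1.44 (SE 0.33, unadjusted p = 0.00117, adjusted p = 0.155). Ifng shifted by 1.60 (SE 0.42, unadjusted p = 0.00318, adjusted p = 0.23), and without wild-type naive replicate 1 by 2.21, which was called (adjusted p = 0.0117). Il3, Lta and Lif shifted by 1.16, 0.78 and 0.75 (adjusted p = 0.541, 0.46 and 0.525), and Tnfsf11 and Fasl by −0.02 and −0.20 (adjusted p = 0.992 and 0.932).

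A list of 18 genes held receptor chains of these cytokines and Ltb, a ligand that pairs with Lta. Of the 16 tested, 5 rose and 3 fell on activation in wild type and 5 rose and 4 fell in the knockout. Over all probe sets 21.8% were called lower in wild type and 23.5% in the knockout, beside the shares called higher given above. Il2ra, the chain that gives the interleukin 2 receptor high affinity, rose by 7.84 in wild type and 7.47 in the knockout, from means of 39.7 and 53.3 to 12659 and 12261. Tnfrsf11b, the decoy receptor of RANK ligand, rose by 3.42 and 4.65, and Csf2rb2, a beta chain used by interleukin 3, by 3.25 and 2.11. Il2ra, Tnfrsf11b and Csf2rb2 reached the array median on the 4 activated arrays only. Their rise therefore follows in part from the filter, and the counts of receptors that rose are a description. Il6st, the gp130 chain through which Lif signals, fell (log2 −3.84 and −4.01), and Ifngr1, the ligand-binding chain for interferon gamma, fell (log2 −2.18 and −2.97). Ltb fell (log2 −2.90 and −3.07). None of the list was called between genotypes in either state.

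Of 36 transcriptional regulators 35 were tested, of which 10 rose and 14 fell on activation in each genotype. Irf4, a factor induced by antigen receptor signalling, rose by 4.85 in wild type and 4.75 in the knockout, and the polycomb gene Ezh2 by 4.11 and 3.44. The orphan nuclear receptor gene Nr4a2 rose by 3.18 and 4.82. The AP-1 gene Fos fell (log2 −5.27 and −4.10), as did Nfatc1, an NFAT gene (−1.90 and −2.02). Runx1 fell as well (−4.30 and −4.29), but with the Actb covariate it gave −1.18 in wild type and 0.74 in the knockout (adjusted p = 0.809 and 0.961). In activated cells 1 regulator was called between genotypes. This was Ikzf1, the gene of Ikaros, which represses Il2, and it fell from 8367 ± 207 in wild type to 5251 ± 418 in the knockout (log2 −0.67, adjusted p = 0.0464). That call was lost without any one of the 4 activated arrays and with arrays centred on their medians (adjusted p = 0.125). It was also lost with no filter (adjusted p = 0.0872), the replicate block (adjusted p = 0.0995) and the Actb covariate (adjusted p = 0.828).

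In naive cells 5 regulators were lower in the knockout and 0 higher. They were the AP-1 genes Jun (log2 −2.23, adjusted p = 0.0058), Junb (−1.62, 0.0301) and Fos (−1.12, 0.0171) and the nuclear receptor genes Nr4a2 (−2.10, 0.00615) and Nr4a1 (−1.75, 0.0493). All 5 calls were lost when the 4 naive arrays were fitted alone (adjusted p = 0.061 for Jun and 0.209 to 0.419 for the others) and in eBayes without trend. The Jun and Nr4a2 calls held in each fit that left out 1 array. With the Actb covariate the Jun call held. Those of Nr4a2, Fos, Junb and Nr4a1 were lost with it (adjusted p = 0.0516, 0.0952, 0.127 and 0.212). The Fos, Junb and Nr4a1 calls were lost without knockout naive replicate 2 (adjusted p = 0.0926, 0.151 and 0.253) and without any one of the 4 activated arrays. The Junb and Nr4a1 calls were also lost without wild-type naive replicate 2 (adjusted p = 0.0867 and 0.0753), and the Nr4a1 call without knockout naive replicate 1 (adjusted p = 0.0539) and with quantile normalization (adjusted p = 0.0591) or the replicate block (adjusted p = 0.0893). These genes were chosen with earlier results of these data known.

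Of 14 genes that control the decay or translation of cytokine mRNA 12 were tested. On activation 4 rose and 3 fell in each genotype. Zfp36, the gene of tristetraprolin, which binds AU-rich elements of Tnf, Csf2 and Il3 mRNA, fell (log2 −4.49 in wild type and −3.69 in the knockout). Its relatives Zfp36l2 (−1.81 and −1.06) and Zfp36l1 (−0.80 and −0.47) also fell. In the knockout the Zfp36l1 call was lost when arrays were centred on their medians (adjusted p = 0.228). It was also lost there without any one of 6 arrays, the wild-type naive ones being the exceptions. In wild type the Zfp36l1 call was lost only with the Actb covariate (adjusted p = 0.903), with which the knockout call was lost too (adjusted p = 0.89). Khsrp, a decay factor, rose by 1.58 and 1.31. In naive cells Zfp36 fell from 8122 ± 324 in wild type to 3479 ± 454 in the knockout (log2 −1.22, adjusted p = 0.0143), a call lost without wild-type activated replicate 1 or 2 (adjusted p = 0.0573 and 0.0561). Zfp36l2 gave −0.92 (adjusted p = 0.0321), a call lost without any one of the 8 arrays, with quantile normalization or centring (adjusted p = 0.0641 and 0.0995) and with the replicate block (adjusted p = 0.0639). Both were lost with the 4 naive arrays alone (adjusted p = 0.147 and 0.239) and with the Actb covariate (adjusted p = 0.0822 and 0.0677). In activated cells 0 of 12 was called between genotypes.

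Of 23 genes listed as responding to interferon gamma 18 were tested, of which 2 rose and 7 fell on activation in wild type and 1 rose and 11 fell in the knockout. The GTPase genes Iigp1 and Igtp rose in wild type (0.88 and 0.78), and Cd274, the gene of PD-L1, rose in the knockout (0.65), a call lost without knockout naive replicate 1 or either knockout activated array (adjusted p = 0.0612 to 0.189). Irf1, a transcription factor induced by interferon gamma, fell (log2 −2.27 and −2.61), as did Gbp7, a guanylate-binding protein gene (−1.42 and −2.05). In activated knockout cells 14 of 18 were below wild type, with a median of −0.38 against −0.02 over all probe sets, and 1 was called. This was Gbp2, which read 5191 and 4133 in wild type and 2113 and 2187 in the knockout (log2 −1.1, adjusted p = 0.0254). Its call was lost with arrays centred on their medians (adjusted p = 0.0737), with the Actb covariate (adjusted p = 0.73) and without any one of the 4 activated arrays. In naive cells Igtp and Irgm2, immunity-related GTPase genes, were higher in the knockout (0.83 and 0.91, adjusted p = 0.0332 and 0.0487), calls lost without knockout naive replicate 2 (adjusted p = 0.165 and 0.201) and without any one of the 4 activated arrays. The Igtp call was also lost without wild-type naive replicate 1 (adjusted p = 0.0978), and that of Irgm2 without wild-type naive replicate 2 or knockout naive replicate 1 (adjusted p = 0.102 and 0.0667). With arrays centred, no offset, no filter and the replicate block Irgm2 gave adjusted p = 0.0777, 0.055, 0.0571 and 0.0813, and Igtp gave 0.0561 with no filter. Both were also lost with the 4 naive arrays alone (adjusted p = 0.392 and 0.432) and with the Actb covariate (adjusted p = 0.0995 and 0.237).

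**Figure D5:**
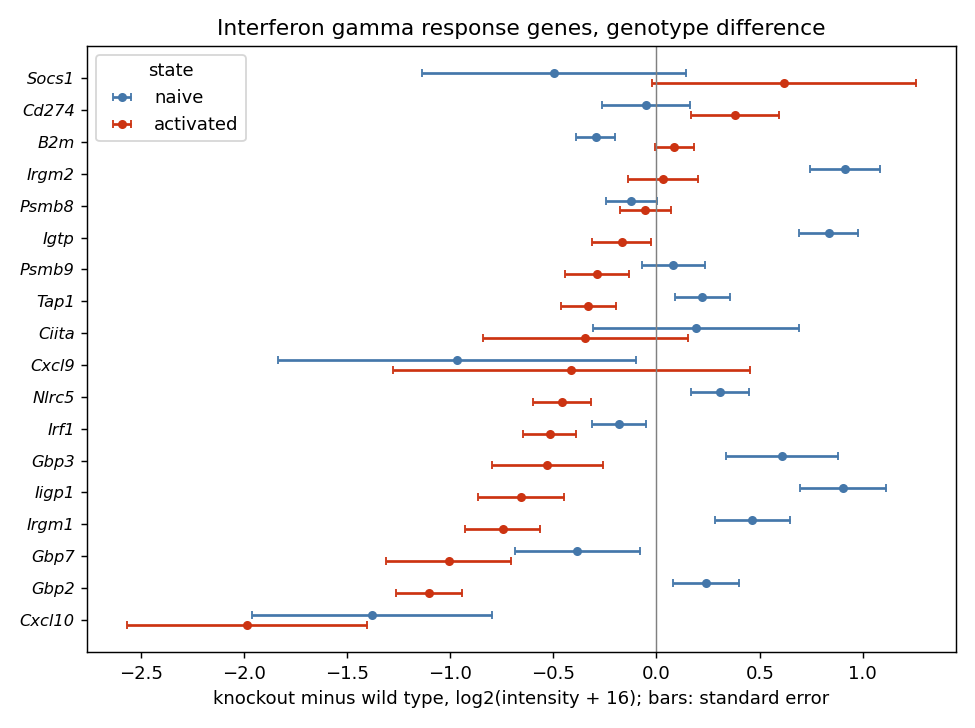
Knockout minus wild type difference of 18 interferon gamma response genes, on the log2(intensity + 16) scale, in naive and activated cells, ordered by the activated value; bars are standard errors of the limma fit. In activated cells 14 of 18 lie below 0, with Gbp2 at −1.1, while Ifng itself gave 0.25.

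The genes most like each member over the 8 arrays were found by the root mean square difference of log2 values after each gene's own mean was removed, over 12814 named genes outside the list. The closest were Gpt2, Ctla4 and Hk2 to Ifng (0.45, 0.46 and 0.48), Per2, Acer3 and Tstd3 to Tnf (0.17, 0.19 and 0.20), and Orc1, Nkain1 and Map3k20 to Lta (0.24, 0.24 and 0.27). They were Ell2, Bnip3 and Anxa3 to Il2 (0.20, 0.31 and 0.31), C1qtnf12, Egln3 and Crem to Il3 (0.21, 0.22 and 0.25), and Anxa2, Kif18b and Tmem237 to Fasl (0.23, 0.24 and 0.25). Asns was closest to both Csf2 (0.33) and Lif (0.37), and Bnip3 (0.28), Ell2 and Crem (0.28 and 0.30) to Tnfsf11. The closest pair of members was Il2 and Tnfsf11, at 0.34, followed by Il3 and Tnfsf11 at 0.36 and Csf2 and Lif at 0.37. Tnf and Fasl had no close member, since the nearest was at 1.0 for either.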

How the data were processed

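RNA of 8 samples was measured on Affymetrix oligonucleotide arrays. The deposited values are linear intensities, 1 for each probe set on each array, made with MAS5 (version not stated) per the submitters' processing notes. Each array had a 2% trimmed mean of 500.0, so the authors had scaled them. The number of arrays limits the precision.

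Probe sets were named from the platform annotation (34958 of 45101 with 1 symbol, 932 with several, 9211 with none), with 34754 symbols updated to GRCm38.p6. The 64 controls were left out of the tests. In R 4.3.3, limma 3.58.1 (lmFit, eBayes with trend) fitted 4 group means to log2(intensity + 16) of all 8 arrays, with 4 residual and 6.67 prior degrees of freedom, two-sided tests and adjustment over 27348 probe sets within each of 5 contrasts. The fit was tested on simulated data. For the genotypes in activated cells, it recovered 14% of 100 probe sets given a log2 difference of 1. It recovered 69% of 100 given a difference of 3. Both sizes were in the same simulated data, and the fit made 4 false calls in all. Members differed there by 0.25 to 1.19, so a member could differ and still not be called.

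Groups came from sample titles. The members and lists were chosen with earlier results of these data known. Named list genes were those called in a genotype contrast or its difference between states, and up to 3 per direction and list on activation, each by its brightest tested probe set. Alternatives changed the offset, normalization, filter, prior, arrays, replicate block and covariate. A crossed replicate block and the count of members without overlap under other normalizations were added after the data were seen. Replicate numbers were not taken as pairs: deviations of same-numbered arrays correlated at −0.17 to 0.07 between groups.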

Additional observations from a re-analysis of the deposited data

Results flagged for a closer look

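Among the members, their receptors, regulators and decay factors and the interferon gamma response genes, Jun, which encodes an AP-1 subunit that takes part in cytokine gene activation, was the 1 gene whose genotype difference differed between states by the test of the difference. It read 6164 and 5166 in wild-type naive, 1456 and 979 in knockout naive, 269 and 198 in wild-type activated, and 342 and 269 in knockout activated cells. The shift was 2.60 on the log2 scale (limma adjusted p = 0.0335, range 0.019 to 0.749 over 18 alternatives, called in 10). It was lost without any one of the 4 activated arrays and without knockout naive replicate 2 (2.31, adjusted p = 0.0858). Among the marker genes of other cells, S100a8, a granulocyte gene, differed as well. It read 123 and 101.01, 1354 and 6941, 32.0 and 46.3, and 2.63 and 5.01 in that group order, a shift of −6.06 (limma adjusted p = 0.0483) for which no alternative was run.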

How the results depend on the processing

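With 2 arrays per group, calls between genotypes were unstable, and dim members hold little information in naive cells. Probe sets called numbered 10714 for activation in wild type (484 with the Actb ratio as covariate, 7746 to 10849 with 1 array left out) and 11395 in the knockout (0 with the covariate in limma, 8458 to 12184). Of the members called, 8 became 4 with a filter at 6 of 8 arrays and 2 with the covariate in wild type, and 9 became 5 and 0 in the knockout. The filter took Il2, Il3, Csf2 and Lif out of the test, since each reached the median on 4 arrays only. Under that filter the members still tested kept their calls. Between genotypes in naive cells 154 were called, against 102 with no filter, 3 in eBayes without trend, 5 with the 4 naive arrays alone, 18 with the covariate, and 27 to 235 with 1 array left out. The lowest count came without either wild-type activated array, the highest without knockout naive replicate 1, and without knockout naive replicate 2 it was 28. In activated cells 59 became 31 with arrays centred, 7 without trend, 734 with the 4 activated arrays alone, 6 with the covariate, and 8 (without wild-type activated replicate 1) to 103 (without wild-type naive replicate 2). The 16 calls of the difference between states became 26 with an offset of 64, 0 without trend and 0 with the covariate, and 0 (without wild-type activated replicate 1 or 2 or knockout activated replicate 1) to 84 (without wild-type naive replicate 2). With 1 array left out, 0 to 1 members were called in naive cells and for the difference, and 0 in activated cells, where the 4 arrays alone called 4. Centring put the all-probe-set median at 0.10 in naive cells and raised the share of calls that were higher to 72.7% there, 64.5% in activated cells and 55.2% on activation in wild type. The cause was not tested.

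With the replicate number as a replicate block, calls numbered 10305, 11014, 108, 26 and 14 in the order above, and members called stayed at 8, 9, 0, 0 and 0. Of the other named genes, Ikzf1, Nr4a1, Irgm2 and Zfp36l2 lost their genotype calls (adjusted p = 0.0995, 0.0893, 0.0813 and 0.0639). A crossed block, added after the data were seen, gave 11049, 11740, 167, 74 and 19.

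Directions turned for several values, most of them near 0. In naive cells these were Lif (−0.00038 with an offset of 64, −0.0497 with the covariate, −0.31 to 0.34 with 1 array left out), Il3 (0.0403 centred, −0.25 to 0.13), Csf2 (−0.31 to 0.71) and the dim Fasl probe set (0.050004 with quantile normalization, 0.0407 centred, −0.20 to 0.0753). For the difference between states they were Tnfsf11 (0.29 with an offset of 64, 0.53 with the covariate, −0.25 to 0.21), Il2 (−0.51 with no offset, −0.11 to 0.91), Csf2 (−0.13 to 0.89) and Fasl (−0.73 to 0.33). On activation in wild type, Tnf ran from −0.0146 to 0.38 and the dim Fasl probe set from −0.0336 to 0.77. With the covariate Ifng in activated cells gave −0.42, and Runx1, Zfp36l2 and Zfp36l1 on activation in the knockout gave 0.74, 0.27 and 0.52, from −4.29, −1.06 and −0.47. The cause was not tested.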

Other observations

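The gene of T-bet, Tbx21, which directs Ifng transcription, and that of its relative Eomes fall outside the rule for named genes and were picked after their values were seen. Tbx21 read 736 and 770 in wild-type naive, 1252 and 1312 in knockout naive, 1581 and 1582 in wild-type activated, and 1022 and 1013 in knockout activated cells. It rose on activation in wild type (log2 1.06, limma adjusted p = 0.000332) and was not called in the knockout (−0.33, adjusted p = 0.123). Its genotype difference was 0.76 in naive and −0.63 in activated cells (adjusted p = 0.0754 and 0.163), with adjusted p = 0.0712 for the shift between states. The Eomes arrays gave 2027 and 1225, 2814 and 3132, 1727 and 1381, and 1121 and 1074 across those groups, and Eomes fell by 1.42 on activation in the knockout (adjusted p = 0.000435). In both genes the knockout arrays were above wild type in naive and below it in activated cells, the opposite order to Ifng and Tnf. None of these genotype differences was called. The order of Ifng in activated cells was not stable, since its arrays overlapped with quantile normalization and its difference was −0.42 with the Actb covariate.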
